A study of Mus musculus with 2 samples.

Results

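The BCL2 family decides at the outer mitochondrial membrane whether a cell begins apoptosis, and 10 of its genes were examined in mouse hybridoma cells given the bursal peptide BSP-II. They were the pro-death genes Bax, Bak1, Bcl2l11, Bbc3, Pmaip1 and Bmf and the pro-survival genes Bcl2, Bcl2l1, Bcl2l2 and Mcl1. Every array probe whose RefSeq accession belongs to one of these genes was kept. This gave 18 probes on 43 usable spots, 10 probes for the 6 pro-death genes and 8 for the 4 pro-survival genes, of 41163 probes and 17302 named genes in all.

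Cells of the hybridoma 1H5F9, an antibody-secreting line of fused B cell and myeloma origin, were cultured for 4 h with 5 µg/ml BSP-II on one array and with 0 µg/ml on the other. Both were cultured in RPMI medium with heat-inactivated fetal bovine serum. The design text describes 2 independent experiments, but both arrays carry replicate number 1, so that each dose is 1 array and nothing below has a replicate check. The number of arrays limits the precision of every value. "Higher" and "lower" describe these 2 arrays.

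On the BSP-II array 27283 probes were well above background, against 24681 on the untreated array, and 24463 were so on both. No non-control spot was saturated. All 12 markers of plasma cells and the B lineage were detected on both arrays. Jchain, the joining chain of secreted antibodies, was at unscaled signals of 92475 (BSP-II) and 88174 (untreated). The BSP-II array was slightly brighter at the median, with a signal of 31.3 against 29.5 untreated. It was more so at the 75th percentile, with 356 against 309. Scaled to that percentile, the log2 difference of Jchain, BSP-II minus untreated, was −0.14. The levels of the 12 markers, each taken from the brightest probe and summed as multiples of the 75th-percentile signal, came to 1141 with BSP-II and 1251 untreated. Of 21 markers of T cells, macrophages, erythroid, fibroblast and epithelial cells with a probe, 14 were detected on both arrays. Their summed level was 16.7 with BSP-II and 16.8 untreated, of which the 3 epithelial markers made up 14.5 and 14.3. Epcam, an epithelial adhesion molecule, accounted for most of it, at unscaled signals of 4781 with BSP-II and 4123 untreated. Its scaled log2 difference was 0.01.

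As background, Bax and Bak1 form the pores that release cytochrome c from mitochondria. BH3-only proteins sense stress and either activate the pore formers directly or occupy the guardians, and the guardians Bcl2, Bcl2l1 (BCL-XL), Bcl2l2 (BCL-W) and Mcl1 hold both in check. Plasma cells and myelomas are known to depend heavily on Mcl1. Bax, Bbc3 (PUMA) and Pmaip1 (NOXA) are textbook targets of p53, and much of the family is also controlled after transcription, which an RNA array does not see.

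Differences in RNA level between the arrays were small in the median of each class, and in neither class did all members differ in 1 direction. The median log2 difference, BSP-II minus untreated, was −0.00 for the 6 pro-death genes (range −0.14 to 0.21) and −0.07 for the 4 pro-survival genes (range −0.12 to 0.38). The median over 12862 detected genes was −0.03, with quartiles of −0.19 and 0.10. The pro-death median exceeded the pro-survival median by 0.07. The class means were in the other order, 0.01 for pro-death and 0.03 for pro-survival genes. The propagated spot error of the difference between class means was 0.10, and none was computed for the medians. Above the median of all genes, which splits them evenly by definition, were 4 of the 6 pro-death genes and 1 of the 4 pro-survival genes. These counts depend on averaging probes. With the brightest probe of each gene, Bak1 (0.14), Bcl2 (0.05) and Bcl2l1 (0.15) also lay above the median of all genes, −0.03. Bcl2l11 and Mcl1 stayed below it. In RNA of whole cultures, a lower level per cell and fewer cells that carry a transcript cannot be told apart. Of 17 member probes above background on both arrays, 0 were at least 1.5-fold different, against 7.35% of all probes. That share depended on level. Probes at least 1.5-fold higher were 2.81% of the dimmest of 3 equal groups by level and 0.21% of the brightest. Those at least 1.5-fold lower were also most frequent in the dimmest group, at 13.1%. The 7.35% was not matched to the members' levels, so this count does not show that they differed less than other probes. Past a log2 difference of 0.32 there were 4 of 17 (23.5%), against 24% of all probes, so the members' share was near the background. Those 4 were 2 higher probes, of Bcl2l2 and Bmf, against 6.74% of all probes, and 2 lower probes, of Bak1 and Bmf, against 17.3%.

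How small differences are signed depends on scaling. With each array scaled to its median, the median of all genes moved by 0.12. The pro-death median was then 0.12 and the pro-survival median 0.05, with all genes at 0.09, so their places relative to all genes stayed 0.03 above and 0.04 below. The gene values of Bcl2l2, Bbc3 and Pmaip1 were above 0 under all 10 alternatives run on single genes. Each of these genes has 1 probe, so alternatives that filter probes or choose among them left its value unchanged and cannot test its sign. In 2 of the 10 alternatives, median scaling and the authors' deposited table, about 0.12 is added to each member probe they hold. Whether a sign changes or stays above 0 there is fixed by the scaling. Bcl2l11 was above 0 in those 2 and below 0 in the other 8.

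**Figure D1:**
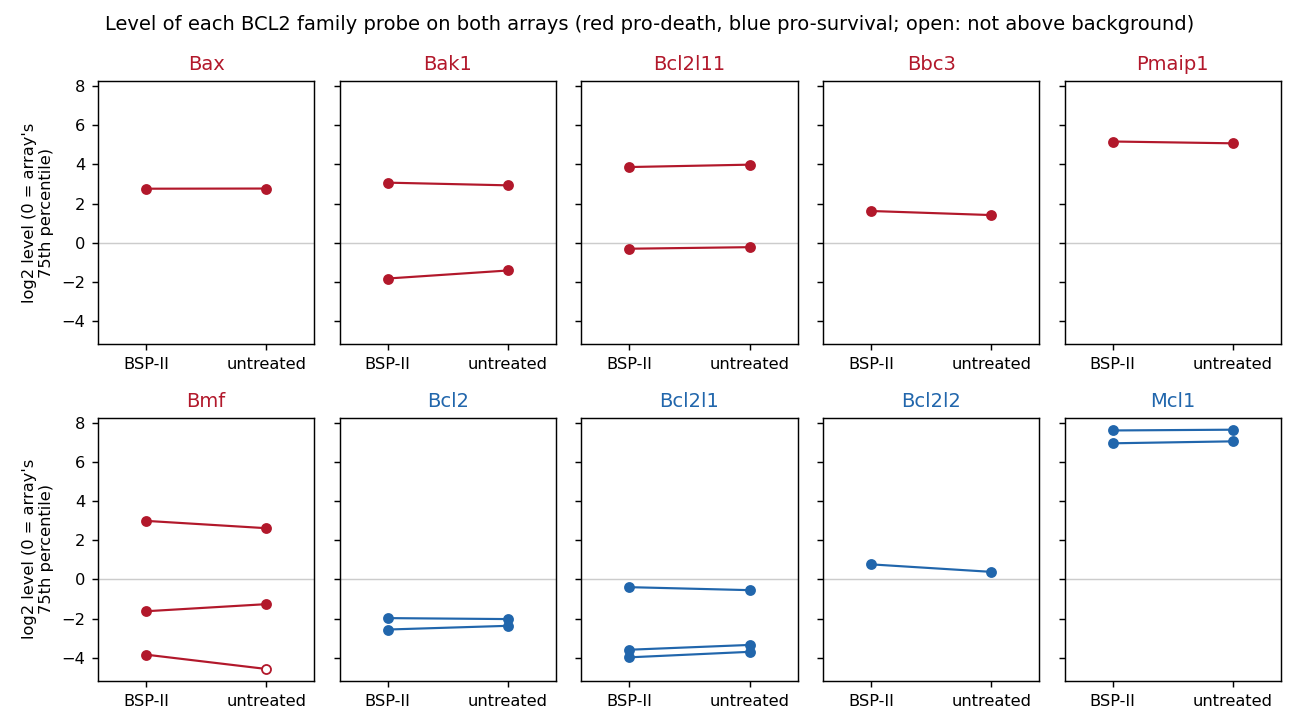
Level of all 18 member probes on each array, as log2 of the signal with 0 at the array's 75th percentile; each line joins the BSP-II array (left) to the untreated array (right) for 1 probe. Lines are close to flat, and 1 Bmf probe (open circle) was not well above background on the untreated array.

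Upstream sequences of 4 members are shown: Bcl2l2 and Bmf because they had the highest probes, Bbc3 for the highest pro-death gene value, and Bax for the narrowest spread over repeat spots. Each runs for 250 bases up to an annotated transcript start, 5′ to 3′ on the gene's strand, from RefSeq on GRCm38.p6. Capitals mark GGGCGG, the GC box bound by Sp1, and matches to the p53 half-site, on either strand; no half-site overlaps a GC box in these 4 sequences. For Bbc3 the first of 3 listed starts is shown, and for Bmf the one of 3 that holds a half-site.
Bcl2l2, chr14:54883175-54883424, + strand: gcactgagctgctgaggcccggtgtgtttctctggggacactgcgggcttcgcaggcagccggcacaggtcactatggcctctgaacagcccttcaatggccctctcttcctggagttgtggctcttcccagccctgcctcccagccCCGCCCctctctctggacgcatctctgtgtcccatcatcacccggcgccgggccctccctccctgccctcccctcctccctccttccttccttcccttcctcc
Bmf, chr2:118544588-118544837, - strand: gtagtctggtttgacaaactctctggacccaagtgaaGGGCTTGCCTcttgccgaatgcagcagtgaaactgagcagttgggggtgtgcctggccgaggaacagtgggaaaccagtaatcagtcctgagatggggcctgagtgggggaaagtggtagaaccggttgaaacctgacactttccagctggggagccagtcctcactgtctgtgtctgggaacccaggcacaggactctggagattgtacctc
Bbc3, chr7:16309333-16309582, + strand: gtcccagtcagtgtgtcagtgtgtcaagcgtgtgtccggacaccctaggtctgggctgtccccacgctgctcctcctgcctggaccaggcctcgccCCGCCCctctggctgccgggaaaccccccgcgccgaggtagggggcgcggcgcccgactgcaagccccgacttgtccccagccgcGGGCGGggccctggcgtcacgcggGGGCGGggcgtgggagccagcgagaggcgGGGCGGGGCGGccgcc
Bax, chr7:45466899-45467148, - strand: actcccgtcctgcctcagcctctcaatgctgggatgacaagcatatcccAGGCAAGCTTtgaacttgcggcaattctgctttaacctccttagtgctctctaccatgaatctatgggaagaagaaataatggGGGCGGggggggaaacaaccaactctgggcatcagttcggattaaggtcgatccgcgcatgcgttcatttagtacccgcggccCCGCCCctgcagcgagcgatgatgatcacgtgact

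The table held 16 promoters of 9 members, with none for Pmaip1 in use. A GC box lay in 9 of the 16 (56.2%), from 6 genes, against 32.7% of 32851 promoters of the same length. A p53 half-site lay in 2 (12.5%), those of Bax and Bmf shown above, against 7.13% of all. CCAAT was present in 5 of the 16 and in 33.9% of all, CACGTG in 2 and in 6.02%, and TATAAA in 0 and in 12.4%. Promoters of 1 gene can overlap, as do those of Bbc3, and a match is a description of letters, not a bound site.

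Of the pore formers, Bax was close to level between the arrays at the 75th-percentile scaling. Its single probe was printed as 10 spots, with signals from 2259 to 2553 (median 2424) with BSP-II and from 1963 to 2220 (median 2081) untreated. These unscaled signals did not overlap, but the BSP-II array was brighter at the 75th percentile, with a signal of 356 against 309 untreated. Scaled to that percentile the levels were 6.76 with BSP-II and 6.80 untreated. The log2 difference was −0.01 ± 0.04 (SD over 10 spots of 1 array each), with 4 spots above 0 and 6 at or below. The spots ranged from −0.07 to 0.05, the narrowest spread of the 3 member probes with repeat spots. With median scaling the difference was 0.11, past its spot error of 0.065, and in the authors' deposited table it was also 0.11.

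Bak1, the other pore former, gave opposite signs at its probes. The brighter probe was at 8.38 times the 75th-percentile signal with BSP-II and 7.62 untreated, a log2 difference of 0.14 with a spot error of 0.20. The dimmer probe was at 0.281 with BSP-II and 0.374 untreated, a difference of −0.41 with an error of 0.21, the lowest of all member probes. Both carry the same transcript accession. Their mean, −0.14, was the lowest pro-death gene value and describes neither probe.

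**Figure D2:**
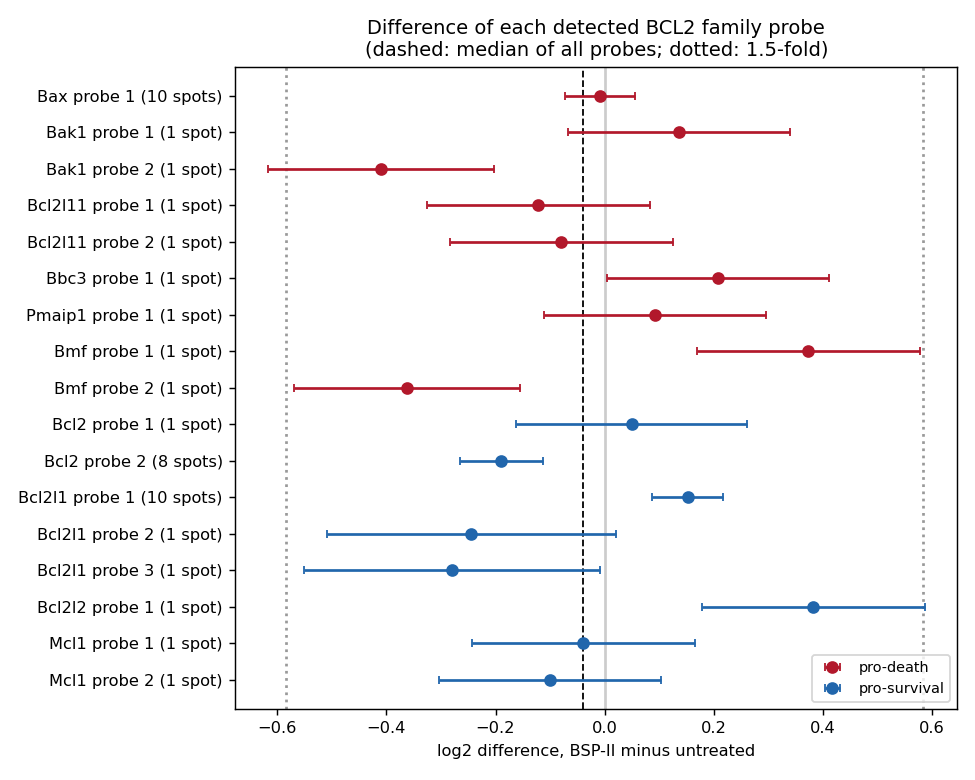
Log2 difference (BSP-II minus untreated) of the 17 member probes above background on both arrays; points are probes, numbered from the brightest within each gene, and bars are Feature Extraction's spot error. All points lie inside the dotted 1.5-fold lines, and the probes of Bak1, Bmf, Bcl2 and Bcl2l1 fall on both sides of 0.

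Among the BH3-only genes, Bbc3, Pmaip1 and Bmf had gene values above 0 and Bcl2l11 below, with a median over the 4 of 0.05. Bbc3, which binds all the guardians, was at 3.07 times the 75th-percentile signal with BSP-II and 2.66 untreated. Its log2 difference of 0.21 was about as large as its spot error of 0.20. This difference exceeded that of 92.3% of detected probes in the brightest of 3 equal groups by level.

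Pmaip1, which chiefly occupies Mcl1, was at a level of 35.9 with BSP-II and 33.7 untreated. The log2 difference was 0.09 with a spot error of 0.20, so the levels were not distinguishable by that error. Bcl2l11 (BIM), which binds every guardian and is a main killer of lymphocytes, had probes at levels of 14.6 with BSP-II against 15.8 untreated and of 0.808 against 0.854. Its log2 differences were −0.12 and −0.08, each with an error of 0.20, the only pro-death gene with several probes whose detected probes shared a sign.

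Bmf, a BH3-only protein released from the cytoskeleton under stress, spread furthest. Its brightest probe was at 7.94 with BSP-II and 6.13 untreated, a log2 difference of 0.37 (1.30-fold) with a spot error of 0.20. That exceeded 98.7% of detected probes in the brightest group. Its second probe was at 0.324 with BSP-II and 0.416 untreated, a difference of −0.36 with an error of 0.21.

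The faintest Bmf probe was well above background with BSP-II alone, at a signal of 24.8, against 12.99 untreated, where the lowest detected signal was 11.8. Scaled, and against its own untreated signal, it was 1.66-fold higher with BSP-II, at a brightness where the spot error was 0.40. Without background subtraction its log2 difference was −0.02. Local background had a median of 37 with BSP-II and 46 untreated, above this probe's signal on each array. Unsubtracted values still hold that background, so they cannot show whether the 1.66-fold value came from the subtraction. All 3 probes carry the same transcript accession, and the mean of the 2 detected ones was 0.01.

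Among the guardians, Bcl2l2 had the highest gene value of all 10 members. Its single probe was at 1.70 times the 75th-percentile signal with BSP-II and 1.31 untreated, with unscaled signals of 607 and 404. The log2 difference of 0.38 (1.30-fold) was 1.87 times its spot error of 0.20. It exceeded 95.1% of detected probes in the middle group by level. Under the 10 alternatives it ranged from 0.29 to 0.51. It has no second probe or repeat spot here.

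Mcl1, a short-lived guardian that is rebuilt continually, was very bright and level. Its probes were at 195 with BSP-II against 200.1 untreated, and at 124 against 132. The log2 differences were −0.04 and −0.10, both well within a spot error of 0.20. The first is also the median of all 24463 detected probes, while the second exceeded 39.7% of them. Within the brightest group by level the probes exceeded 42.5% and 26.5%.

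Bcl2, the founding guardian, was dim. The probe to the transcript with accession NM_009741 had 8 usable spots, from 55.7 to 63.6 (median 61.5) with BSP-II and from 57.0 to 63.7 (median 59.0) untreated. Scaled, its level was 0.170 with BSP-II and 0.193 untreated, a log2 difference of −0.19 ± 0.10 (SD over 8 spots of 1 array each), below 0 at all 8 spots. This difference exceeded that of 46.5% of detected probes in the dimmest group by level, whose median was −0.16. The unscaled signals overlapped, and with median scaling the difference was −0.07. The probe to NM_177410 was at 0.254 with BSP-II and 0.245 untreated, a difference of 0.05 with an error of 0.21. Its spot lay near (within 3 rows and columns of) at least 2 spots that differed 2-fold or more in 1 direction, and their part in its value was not tested. The same was true of 1 of the 10 Bax spots and of the second Bcl2l1 probe.

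Bcl2l1, the guardian best known in activated lymphocytes, again split by brightness. Its brightest probe, on 10 spots, ran from 253 to 292 (median 269) with BSP-II and from 193 to 238 (median 210) untreated. Scaled, it was at 0.760 with BSP-II and 0.683 untreated, a log2 difference of 0.15 ± 0.07 (SD over 10 spots of 1 array each), above 0 at all 10 spots. The unscaled signals did not overlap, but the BSP-II array was brighter at the 75th percentile, with a signal of 356 against 309 untreated. Scaled to that percentile, the signals of the arrays overlapped. Its dim probes were at 0.0830 with BSP-II against 0.0983 untreated and at 0.0634 against 0.0770. Their differences were −0.24 and −0.28, with errors of 0.26 and 0.27. These exceeded 40.3% and 36.6% of detected probes in the dimmest group by level. The gene value, −0.12, was the lowest of the guardians, while the brightest probe alone gave the second highest guardian value.

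**Figure D3:**
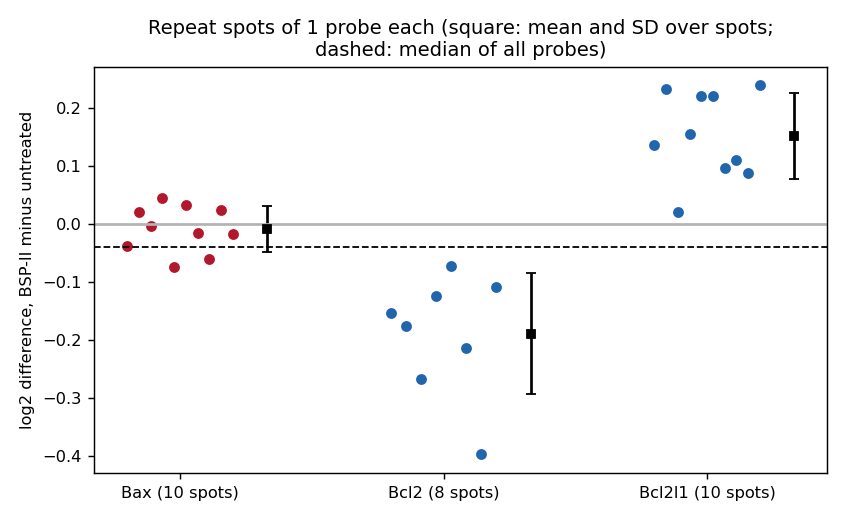
Log2 difference at each repeat spot of the Bax, Bcl2 and Bcl2l1 probes, with the mean and SD over spots as a square with bars. Spots of Bax straddle 0, all 8 of Bcl2 lie below it and all 10 of Bcl2l1 above it; spots share 1 RNA sample per array and are not replicates.

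Several members thus depended on which probe was read. Of the 6 members with more than 1 detected probe, 5 had the higher difference at the brightest probe, all but Bcl2l11, and the median gap from the dimmest probe was 0.34. Over all 4032 genes with several detected probes the brightest was higher in 53%, and the median gap was 0.01, with quartiles of −0.11 and 0.16. In the 2111 genes whose brightest and dimmest probes lay at least 2 log2 units apart in level, the brightest was higher in 54.5%. The median gap there was 0.02. Over all probes the differences varied with level. The dimmest group of probes had a median of −0.16 and an SD of 0.43, against −0.01 and 0.18 in the brightest. The part of level in the members' gap was not tested. The members' gap was 0.30 with loess scaling, 0.28 with quantile normalization and 0.18 with normexp background correction. Taking the brightest probe of each gene put the pro-death median at 0.11 and the pro-survival median at 0.10, against −0.03 for all genes.

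**Figure D4:**
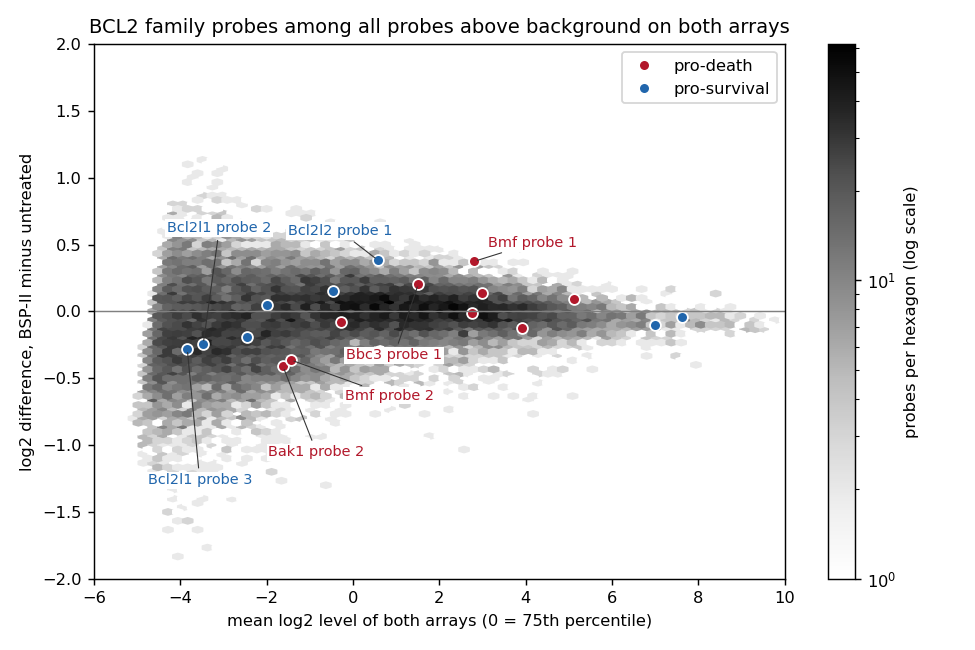
Log2 difference against mean log2 level for the 24463 probes above background on both arrays (grey, darker for more probes on a log scale; 36 probes lie outside the frame), with the 17 member probes in colour. Probes past 0.2 in either direction and labelled are high for Bcl2l2, Bmf and Bbc3 at middle or bright levels, and low for the second probes of Bak1 and Bmf and the dim ones of Bcl2l1.

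The remaining genes of the pathway were read through lists chosen for their role. Of 50 such genes, 43 were detected on both arrays, and 2 (4.65%) were at least 1.5-fold different, against 5.84% of all genes. One was higher, against 1.16% of all genes, and 1 was lower, against 4.68%. Their median log2 difference was 0.00.

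Other BCL2 family members had 10 of 16 genes detected on both arrays, with 0 at least 1.5-fold different and a median of 0.06. The mitophagy receptor Bnip3, also a hypoxia-induced gene, was at 4.25 times the 75th-percentile signal with BSP-II and 3.27 untreated, a difference of 0.38 with an error of 0.20. Its relative Bnip3l was at 0.19, with both probes above 0, and the guardian Bcl2l10 at −0.33.

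Regulators of the family had 14 of 15 genes detected on both arrays and a median of −0.07. Huwe1, a ubiquitin ligase that marks Mcl1 for destruction, had a gene value of 0.81 that came from 1 probe. That probe was at a signal of 249 with BSP-II and 16.2 untreated, a log2 difference of 3.73, whereas its other 3 detected probes gave 0.02, −0.14 and −0.37. Mapk8, the kinase JNK1 that phosphorylates Bcl2l11 and Bmf, was at −1.01 over 9 spots but at signals of 15.7 with BSP-II and 27.4 untreated. The p53 relative Trp73 was at −0.42 by its detected probe.

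Mitochondrial partners were all detected, 11 of 11, with 0 at least 1.5-fold different and a median of 0.02. Cycs, which encodes cytochrome c, was at −0.19, with its 3 probes between −0.28 and −0.10. The Bid receptor Mtch2 was at 0.14 and the fission enzyme Dnm1l at 0.12, each with 1 probe above 0 and 1 below. The apoptosome and caspase list had 8 of 8 genes detected, with 0 at least 1.5-fold different and a median of 0.04. Casp9, the initiator caspase of the apoptosome, was at 0.30 at dim signals, and Casp2 at −0.24.

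**Figure D5:**
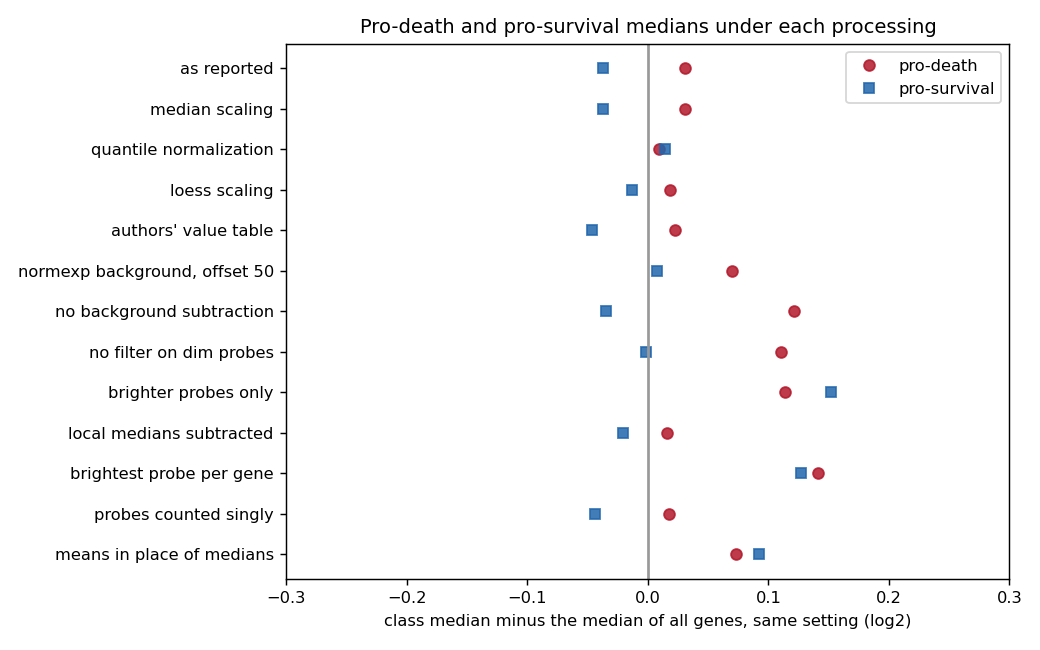
Median log2 difference of pro-death and pro-survival genes minus the median of all genes, as reported and under 12 other ways of processing (for the last row, means in place of medians). Pro-death values lie between 0.01 and 0.14 and pro-survival values between −0.05 and 0.15, and their order changes between settings.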

How the data were processed

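Cy3-labelled RNA was hybridised to 1-colour Agilent whole-genome arrays, 1 per dose. The submitters' processing notes name Agilent Feature Extraction 10.5.1.1. The deposited intensity values are, per the file headers, the processed signal (background-subtracted within each array), its error, and the median brightness of spot and local background. The deposited flags, unit "other", call outlier, saturated and well-above-background spots. The deposited log2 value table holds 23296 probes, with column medians of 2.99 (BSP-II) and 2.88 (untreated). Adding −4.94 (BSP-II) or −4.85 (untreated) to the log2 processed signal gave its values to within 0.001 for 99.7% of its probes, which settles scale and direction. What those centring constants rest on stays unknown.

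From these files, the log2 processed signal was reduced by each array's 75th percentile over non-control spots. That percentile was a signal of 356 (BSP-II) and 309 (untreated). Left out were 189 outlier spots, 2 of them of Bcl2. Spots of 1 probe were averaged. A probe counted as above background if most of its spots were flagged so. Probes were named by unversioned RefSeq accession from a gene table of GRCm38.p6, used for names alone since the array grid names build mm9. A match was found for 25091 of the 41163 probes, covering 17302 genes. A gene's difference was the mean over its probes above background on both arrays.

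Named genes are the 10 members with every probe and, of each pathway list, the 3 with the largest difference and any at least 1.5-fold different. One gene that this rule names is not reported here. Jchain and Epcam were named after their values were seen. The members and lists were chosen with earlier results of these data known. With 1 array per group there is no test and no spread between replicates. The error beside a difference is Feature Extraction's own, carried to the log2 scale and divided over repeat spots. It leaves out variation between cultures, RNA samples and hybridisations. Alternatives were scaling by median, quantile or loess, the deposited table, normexp (offset 50) and unsubtracted signals, other dim-probe filters, local medians (10 rows and columns to each side), and other ways to combine probes. The comparison of bright with dim probes was added after seeing the data. The steps were tested on simulated data with the same noise at every level and known folds in brighter detected probes alone. That test does not cover dim probes or differences that vary with level. Tools were Python 3.11.15, numpy 2.4.6, pandas 2.3.3, matplotlib 3.10.9, R 4.3.3 and limma 3.58.1.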

Additional observations from a re-analysis of the deposited data

How the results depend on the processing

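No paired analysis was possible because the groups share only 1 replicate number and each holds 1 array. A value counts as moved when it changes by more than its spot error, which is no replicate spread. For the class medians and their difference, the error used was the one propagated to the class means. The pro-death median of −0.00 became 0.12 with median scaling, 0.12 in the authors' table, 0.077 with normexp, 0.070 without background subtraction, 0.11 with brighter probes only and 0.11 with the brightest probe per gene. The pro-survival median of −0.07 became 0.052 with median scaling, 0.022 with quantile, 0.052 in the authors' table, 0.015 with normexp, 0.15 with brighter probes only (3 genes left), 0.10 with the brightest probe and 0.030 as a mean. Median scaling and the authors' table each add a constant near 0.12 to each member probe they hold; for the others the cause was not tested. The excess of the pro-death over the pro-survival median, 0.07, ranged from −0.038 (brighter probes only) to 0.16 over 12 alternatives and was above 0 in 9. The count of member probes at least 1.5-fold different, 0, became 1 (a Bmf probe) with no filter on dim probes, and 4 at a log2 threshold of 0.32. Of 99 values for single members under the alternatives, 86 stayed within their error. Some of these could not move, so the count does not measure stability. Alternatives that filter or choose probes repeat the value of a gene with 1 probe. The constant near 0.12 is smaller than the error of a probe with 1 spot, about 0.20. The gap between brightest and dimmest probes, 0.34, fell to 0.18 with normexp. Dim probes limit what can be seen: local background had a median of 37 with BSP-II and 46 untreated.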
